A study of Mus musculus with 6 samples.

Results

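The genes described here are 9 mouse regulators of the stability of short-lived mRNAs, namely Zfp36, Zfp36l1, Zfp36l2, Zc3h12a, Zc3h12c, Tob1, Tob2, Btg1 and Elavl1. They were taken by gene symbol from the 25001 loci of the expression files, and where a symbol repeated, the annotated locus with the highest mean level was used. A locus of its own was found for 8 of the 9. Zfp36l2 had none, because it lies inside a larger locus that was assembled together with the neighboring gene Thada.

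The study asked which genes respond to EICD, the intracellular domain that is released from the membrane protease epithin/PRSS14 after shedding of its ectodomain. RNA-seq was performed in 427 cells, a mouse thymoma cell line, in 6 libraries with 1 library per condition. There were 427 cells carrying the empty pSUPER vector and the SPPL2b knockdown line SP2bKD, each kept without serum for 2 h and then given DMSO or 1 µM of the phorbol ester PMA, which triggers the shedding, for 2 h. Another pair of libraries came from SP2bKD cells transfected with GFP alone or with GFP plus EICD (a FLAG-tagged N-terminal piece of epithin) and sorted for GFP. The methods describe the knockdown line as a clone with a stable shRNA, whereas the sample labels give an siRNA. Because there was 1 library per condition, every difference below compares 2 libraries, has no replicate check and carries no p-value.

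Short-lived mRNAs of cytokines, chemokines and immediate early genes often carry AU-rich elements in their 3' untranslated region. Proteins of the ZFP36 family bind these elements and recruit the CCR4-NOT deadenylase, whereas HuR, the product of Elavl1, binds similar sequences and stabilizes the mRNA. Regnase proteins, encoded by the Zc3h12 genes, are endonucleases that cut mRNAs at stem-loops in the same region, and the TOB and BTG proteins are antiproliferative adaptors that bind the catalytic subunits of CCR4-NOT.

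Several of these regulators carry such elements themselves. The nonamer TTATTTATT was searched in the longest annotated 3' untranslated region of each gene, and it was present in Zfp36, Zfp36l1 and Elavl1 among the 8 measured genes. Of 10328 measured loci with an annotated region, 8.62% held it. The regions of the 8 genes were also longer, with a median of 2146 bases against 1204.5 bases. The sites below, from GENCODE M21 on GRCm38, are shown because they are the elements that the ZFP36 and HuR proteins are known to bind, with the nonamer in capitals.
Zfp36 (chr7:28376953-28376977, minus strand): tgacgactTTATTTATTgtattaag
Zfp36l1 (chr12:80108169-80108193, minus strand): ctgttggaTTATTTATTttagaaat
Elavl1 (chr8:4285790-4285814, minus strand): catgaaaaTTATTTATTtatttatt
The site of Elavl1 is the first of 8 that overlap or lie close together near the end of its region of 4218 bases. Zfp36 and Zfp36l1 held 1 each, in regions of 774 and 1835 bases. Zfp36l2, which could not be measured, also held 1. A match describes the sequence and does not show binding in these cells.

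All 8 loci were detected in each library. Levels are given as FPKM, a count of fragments corrected for transcript length and sequencing depth, so that genes of different length can be set beside each other. In 427 cells with DMSO the order from the highest level was Elavl1, Tob1, Btg1, Zfp36l1, Tob2, Zc3h12a, Zfp36 and Zc3h12c, from 50.0 to 6.16 FPKM. The last 3 of these lay within a narrow range of 6.16 to 6.55 FPKM and their order is not established without replicates. The order differed most in the GFP plus EICD library, where Tob1 was highest at 77.1 FPKM, Zfp36l1 was second at 73.4 FPKM and Zc3h12c stayed lowest at 5.80 FPKM. Over the 6 libraries Zfp36 spanned 5.84-fold, Zc3h12a 5.29-fold and Zfp36l1 4.17-fold. Each of the other 5 genes spanned between 1.17-fold and 1.78-fold.

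**Figure D1:**
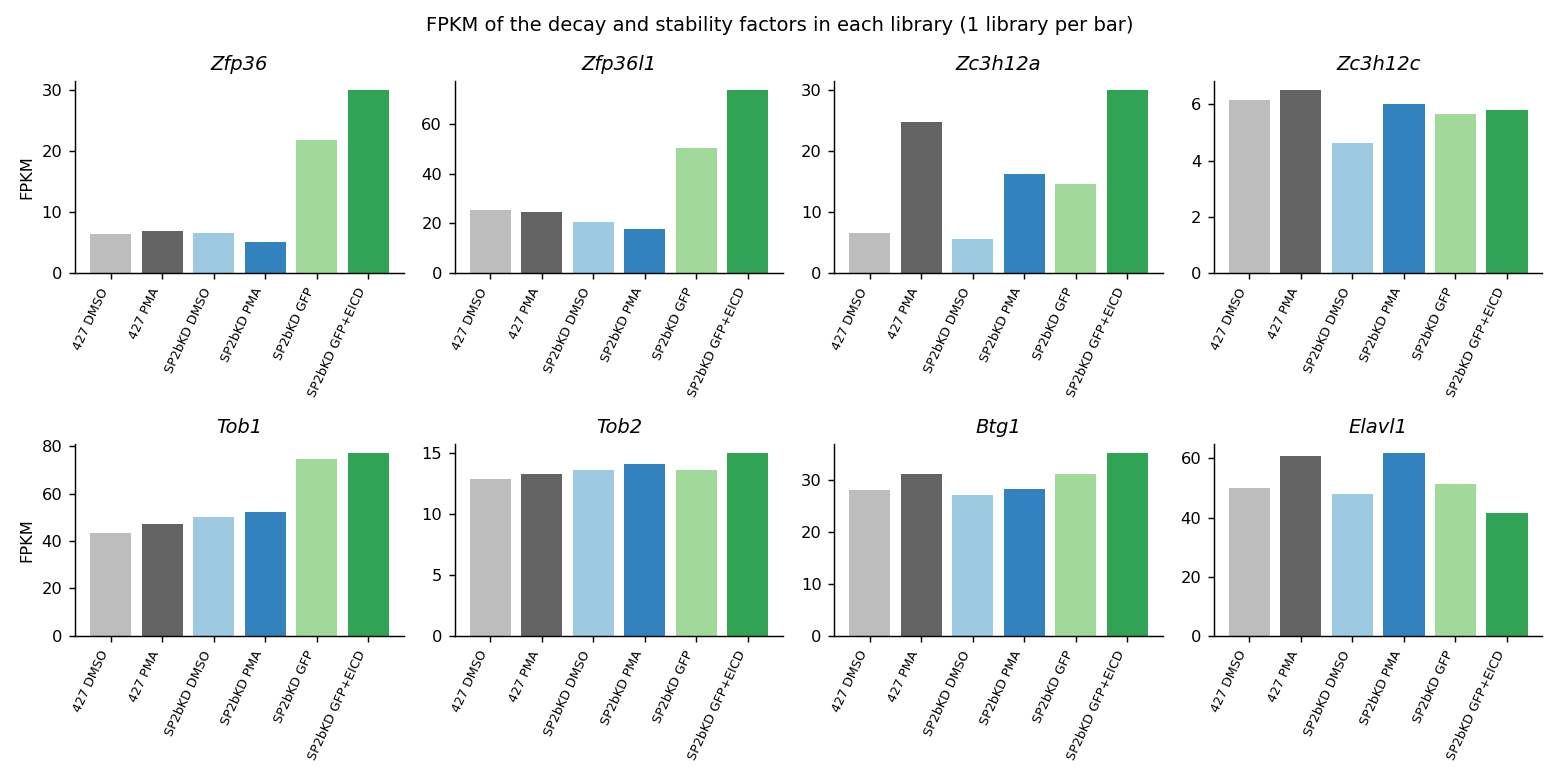
FPKM (y axis, linear from 0, a scale for each panel) of the 8 measured genes in the 6 libraries (x axis), with 1 library per bar and no error bar. Zfp36 and Zfp36l1 were highest in the GFP and GFP plus EICD libraries, Zc3h12a was also high in both PMA libraries, and Zc3h12c, Tob2, Btg1 and Elavl1 spanned at most 1.49-fold.

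The libraries held an estimated 24500000 to 28400000 fragments, and each of the 8 genes had an estimated 396 to 9979 fragments in a library. Counting intervals below rest on these estimates, cover counting error only and are likely too narrow. Of 10 epithelial markers, 9 were at 1 FPKM or more in every library, with a summed level of 6762 to 15273 FPKM, which was highest in the 2 sorted libraries. Most of this sum came from Krt5 and Krt14, while Krt8, Krt18 and Epcam were lower in the sorted GFP library (142.8, 49.5 and 152.7 FPKM) than in the untransfected cells with DMSO (310.8, 89.6 and 208.7 FPKM). In this comparison 3 of the 9 markers (Krt5, Krt14 and Trp63) were more than 2-fold higher and 1 lower, against 4.01% and 5.14% of all loci. In sign, 5 of the 9 were higher and 4 lower. In bulk RNA a different share of cells and a different amount of RNA per cell cannot be told apart. T cell markers summed to 1.97 to 3.76 FPKM, nearly all from a newly assembled locus named Rag1, and Cd3e and Cd4 were listed at 0. Of 6 thymic epithelial markers, 3 (Foxn1, Ly75 and Prss16) were at 1 FPKM or more, with a sum of 31.7 to 46.0 FPKM. Fibroblast markers summed to 0.439 to 2.17 FPKM and macrophage markers to 4.48 to 8.69 FPKM, with Adgre1 at 0. Sppl2b, the targeted gene, was not lower in the libraries labelled SP2bKD, at 13.4 against 9.90 FPKM with DMSO and 9.37 against 6.86 FPKM with PMA, and its locus overlaps Lsm7. St14, which encodes epithin/PRSS14, was at 69.6 FPKM with GFP and 614.5 FPKM with GFP plus EICD, and the transfected piece is part of this gene. The sum of FPKM ranged from 6.24 to 14.8 times 1000000 over the libraries, and the 10 highest loci of each library held 85.6% to 94.2% of it.

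Zfp36 (chromosome 7, 28376784 to 28380253, minus strand) encodes tristetraprolin, the founding member of the family. It was at 6.41 FPKM in 427 cells with DMSO and at 6.97 with PMA. In the libraries labelled SP2bKD it was at 6.53 FPKM with DMSO, 5.12 with PMA, 21.7 with GFP and 29.9 with GFP plus EICD. Both sorted libraries thus stood above all 4 unsorted ones, which lay close together. As log2 ratios of FPKM + 0.01, the scale used for all differences here, PMA gave 0.12 in 427 cells and -0.35 in the cells labelled SP2bKD. The ratio of GFP-transfected sorted cells to untransfected cells with DMSO was 1.73, and that of EICD to GFP was 0.46.

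Zfp36l1 (chromosome 12, 80107760 to 80113013, minus strand), a paralog with the same RNA-binding zinc fingers, followed a similar course at a higher level. It was at 25.4 FPKM in 427 cells with DMSO and at 24.5 with PMA. With the SP2bKD label it was at 20.6 FPKM with DMSO, 17.6 with PMA, 50.1 with GFP and 73.4 with GFP plus EICD. Again the sorted libraries were above all others, and PMA was not accompanied by a higher level in either line. The log2 ratios were -0.06 and -0.23 for PMA in 427 cells and in the cells labelled SP2bKD, 1.28 for GFP-transfected sorted cells and 0.55 for EICD.

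For Zfp36l2 (chromosome 17, 84183931 to 84187947, minus strand), the third paralog, no value of its own can be given. The locus named Thada began at the same base as Zfp36l2 and ran from 84183931 to 84466239, whereas the Thada gene is annotated from 84190076 to 84466205. This joint locus was at 26.5 FPKM in 427 cells with DMSO, 60.0 with PMA, 29.7 in the cells labelled SP2bKD with DMSO and 69.9 with PMA. It was at 71.3 FPKM with GFP and 87.7 with GFP plus EICD. Which of the 2 genes carried the PMA log2 ratios of 1.18 and 1.24 cannot be told apart, so the locus enters no count below.

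The promoter of Zfp36 is shown because it was the only one of the measured genes to hold a match to the CArG box, the sequence bound by serum response factor, or to the EGR motif. The window runs from 250 bases before to 50 bases after the RefSeq start site on GRCm38.p6, with the matches in capitals.
Zfp36 promoter (chr7:28379179-28379478, minus strand): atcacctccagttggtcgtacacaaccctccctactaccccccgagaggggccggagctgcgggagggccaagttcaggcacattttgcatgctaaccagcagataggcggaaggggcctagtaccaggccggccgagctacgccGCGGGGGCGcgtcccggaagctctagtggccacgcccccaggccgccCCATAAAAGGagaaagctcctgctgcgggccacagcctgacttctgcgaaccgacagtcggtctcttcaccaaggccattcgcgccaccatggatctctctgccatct
The CArG box spans positions -58 to -49 and the EGR match (GCGTGGGCG or GCGGGGGCG) positions -105 to -97 from the start site. Both strands were searched. Among 32851 promoters of the same length, 1.63% held a CArG box and 3.47% an EGR match. Promoters of 8 of the 9 genes were found in the RefSeq table, all but that of Zfp36l2, and Zc3h12c had a pair of them. None held AP-1 (TGACTCA or TGAGTCA), the cyclic AMP response element TGACGTCA or a kB motif, which 5.20%, 1.79% and 6.93% of all promoters held. The short element TGACG, which is part of the cyclic AMP response element, was present in promoters of Zc3h12a, Zc3h12c, Tob1 and Btg1. It was also present in 20.8% of all promoters. These matches are descriptions of the windows, and the absence of a match says only that the letters are not in them.

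Zc3h12a (chromosome 4, 125118423 to 125127935, minus strand) encodes Regnase-1, an endonuclease that limits inflammatory mRNAs. It was at 6.55 FPKM in 427 cells with DMSO and at 24.7 with PMA. The libraries labelled SP2bKD gave 5.66 FPKM with DMSO, 16.3 with PMA, 14.5 with GFP and 29.9 with GFP plus EICD. Its level was thus higher with PMA in both lines, and higher with EICD than with GFP. PMA gave a log2 ratio of 1.91 in 427 cells, with a 95% counting interval of 1.77 to 2.06, which was the 170th highest of 10981 loci that reached 1 FPKM in either library. In the cells labelled SP2bKD the ratio was 1.52 (1.36 to 1.68), the 211th highest of 10987 loci. The EICD ratio was 1.04 (0.93 to 1.15), the 392nd highest of 10991 loci. This last value sits at the 2-fold line, and its interval includes it.

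Zc3h12c (chromosome 9, 52109575 to 52169053, minus strand), which encodes another Regnase, did not share this course. It was at 6.16 FPKM in 427 cells with DMSO, 6.50 with PMA, 4.63 in the cells labelled SP2bKD with DMSO and 5.99 with PMA. With GFP it was at 5.64 FPKM and with GFP plus EICD at 5.80 FPKM. The 6 values lay within 1.40-fold of each other, and its largest log2 ratio for PMA was 0.37, in the cells labelled SP2bKD.

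Tob1 (chromosome 11, 94209837 to 94215508, plus strand) was the most abundant of the deadenylase adaptors. It was at 43.4 FPKM in 427 cells with DMSO, 47.1 with PMA, 50.1 in the cells labelled SP2bKD with DMSO and 52.0 with PMA. The sorted libraries were again above the rest, at 74.7 FPKM with GFP and 77.1 with GFP plus EICD. The log2 ratio of GFP-transfected sorted cells to untransfected cells was 0.58, below 2-fold, and that of EICD to GFP was 0.05.

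Its paralog Tob2 (chromosome 15, 81848270 to 81858561, minus strand) had the narrowest range of all, from 12.9 FPKM in 427 cells with DMSO to 15.0 with GFP plus EICD. Btg1 (chromosome 10, 96617001 to 96622813, plus strand), a related antiproliferative gene, ranged from 27.2 FPKM in the cells labelled SP2bKD with DMSO to 35.2 with GFP plus EICD. In every comparison the log2 ratios of these 2 genes were between -0.14 and 0.20.

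Elavl1 (chromosome 8, 4285382 to 4325413, minus strand) encodes HuR, the stabilizing factor. It was at 50.0 FPKM in 427 cells with DMSO and 60.7 with PMA, and at 48.0 and 61.8 FPKM in the cells labelled SP2bKD. With GFP it was at 51.4 FPKM and with GFP plus EICD at 41.5, its lowest value. The log2 ratios were 0.28 and 0.36 for PMA and -0.31 for EICD, the only negative EICD ratio among the 8 genes, although those of Zc3h12c, Tob1, Tob2 and Btg1 were also below 0 with each library set to the same sum of FPKM. The locus shares 204 bases with Ccl25 on the opposite strand, whose level was 7.05 to 14.3 FPKM, and without strand information their fragments there cannot be told apart. No other measured gene of the group overlapped a locus.

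**Figure D2:**
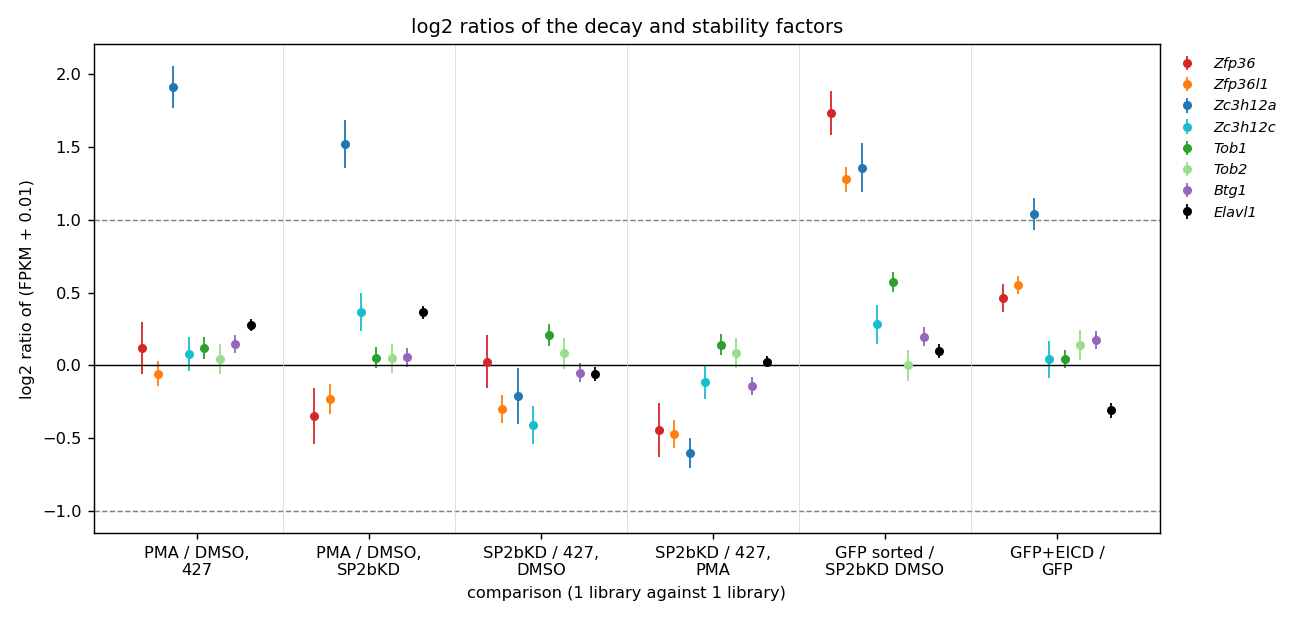
The log2 ratio of FPKM + 0.01 (y axis; for EICD the 0.01 was added to that library only) for the 8 genes (colors) in the 6 comparisons of 2 libraries (x axis), with 95% counting intervals as vertical lines and the 2-fold lines dashed. Zc3h12a lies above 2-fold for PMA in both lines (1.91 and 1.52), for sorted cells (1.36) and for EICD (1.04), and Zfp36 (1.73) and Zfp36l1 (1.28) lie above it for sorted cells.

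Taking the group by comparison, PMA in 427 cells left 1 of the 8 genes, Zc3h12a, more than 2-fold higher and none more than 2-fold lower. Over all loci counted 4.44% were that much higher and 5.00% lower. The median log2 ratio of the 8 genes was 0.12 and that of all loci -0.12. In the cells labelled SP2bKD the same gene was past 2-fold and no other, where 3.83% of loci were higher and 6.40% lower, and the medians were 0.06 and -0.15. Apart from Zc3h12a, no gene of the group had a PMA ratio beyond 0.5 in either direction in either line. The signs of the small ratios depend on the scaling. With each library set to the same sum of FPKM, the median of all loci in 427 cells moved by -0.25, and Zfp36, Zc3h12c, Tob1, Tob2 and Btg1 had ratios of -0.20 to -0.10.

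The PMA ratios were also compared between the lines, as 427 minus that labelled SP2bKD, with the limit that Sppl2b was not lower in the latter. For Zc3h12a it was 0.39, with a counting interval of 0.17 to 0.61, and for Zfp36 it was 0.47. None of the 8 differences was past 1 in size, against 4.60% of all loci. Their range was -0.29 for Zc3h12c to 0.47 for Zfp36. With each library set to the same sum of FPKM, the difference was 0.10 for Zc3h12a and 0.19 for Zfp36, both within their counting error, and those of Zfp36l1, Tob1 and Btg1 became negative, at -0.10, -0.21 and -0.19. The median difference of all loci moved by -0.27 under that scaling.

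Between the lines themselves no gene was past 2-fold, against 7.05% of loci with DMSO and 5.83% with PMA. With DMSO the log2 ratios of the libraries labelled SP2bKD to 427 cells lay between -0.41 for Zc3h12c and 0.21 for Tob1. With PMA the lowest were -0.60 for Zc3h12a, -0.47 for Zfp36l1 and -0.44 for Zfp36. These directions depend on the scaling. With each library set to the same sum of FPKM, the median of all loci moved by 0.96 with DMSO and 1.24 with PMA, and the ratios of these 3 genes with PMA became positive, at 0.64, 0.77 and 0.79. All 3 still lay below the median of all loci under that scaling, which was 1.26. With the same upper quartile in each library instead, they stayed negative, at -0.61 for Zc3h12a, -0.48 for Zfp36l1 and -0.45 for Zfp36.

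EICD against GFP gave 1 gene of 8 more than 2-fold higher, again Zc3h12a, and none lower, where 3.93% of loci were higher and 0.810% lower. The median of the 8 was 0.16 and that of all loci 0.07. Zfp36l1 and Zfp36 followed Zc3h12a in order of size, at 0.55 and 0.46. With 1 added to both libraries, or with the same sum of FPKM, Zc3h12a was no longer past 2-fold.

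GFP-transfected sorted cells against untransfected cells of the same line with DMSO had the most genes past 2-fold, namely Zfp36, Zc3h12a and Zfp36l1, with none lower. Over all loci 4.01% were higher and 5.14% lower. All 8 ratios were above 0, with a median of 0.43 against -0.08 for all loci. These 2 libraries differ in transfection, sorting and treatment together, which cannot be told apart, and the GFP library is also the base of the EICD ratio. The summed epithelial markers were 6997 FPKM in the untransfected and 15273 FPKM in the GFP library, mostly from Krt5 and Krt14, whereas the median log2 ratio of the 9 markers at 1 FPKM or more was 0.07. Their part in these values was not tested. Within the pair of sorted libraries, Zfp36, Zfp36l1 and Zc3h12a all had higher values with EICD than with GFP alone.

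The mRNAs that such factors act on were described with a list of 25 genes known to carry AU-rich elements, of which 24 had a locus. The list was chosen with earlier results of these data known. In 427 cells 14 of the 16 that reached 1 FPKM in either library were more than 2-fold higher with PMA and none lower, with a median log2 ratio of 2.58. Over all loci 4.44% were that much higher and 5.00% lower. Csf2, the growth factor GM-CSF, was at 0.06 FPKM with DMSO and 11.1 with PMA. Cxcl2, a neutrophil chemokine, was at 0.13 and 48.2 FPKM. Csf3, which encodes G-CSF, was at 1.54 and 80.5 FPKM. These 3 were low with DMSO, unlike others of the list such as Ptgs2, at 86.5 FPKM, and Hif1a, at 60.8 FPKM (both chosen after their values were seen). Csf2 and Cxcl2 reached 1 FPKM only with PMA, so they entered the count through the library where they were high.

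In the cells labelled SP2bKD 12 of 16 were more than 2-fold higher with PMA and 1, Dusp1, was lower, with a median of 2.94. Over all loci 3.83% were that much higher and 6.40% lower. Here Csf2, Csf3, Cxcl2, Ccl2 and Fos reached 1 FPKM only with PMA and entered the count through that library. Cxcl2 reached 3.96 FPKM and Csf3 14.1 FPKM there. With PMA, 11 of 16 were more than 2-fold lower in the library labelled SP2bKD than in 427 cells, with a median of -1.19, and with DMSO 4 of 14 were. Over all loci 3.27% were that much lower with PMA and 3.13% with DMSO. With DMSO, Csf3, Ccl2 and Fos reached 1 FPKM only in 427 cells. As for the members, these counts between lines depend on the scaling. With the same sum of FPKM 3 of 16 were more than 2-fold lower and 2 higher with PMA. With DMSO 1 of 14 was lower and 1 higher. Under that scaling 0.987% of all loci were that much lower and 78.9% higher with PMA. The shares with DMSO were 1.07% and 51.1%. With the same upper quartile 12 of 16 were more than 2-fold lower with PMA and 4 of 14 with DMSO, against 3.30% and 3.47% of all loci.

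With EICD 8 of 16 were more than 2-fold higher than with GFP and none lower, with a median of 0.89. Over all loci 3.93% were that much higher and 0.810% lower. Tnf and Csf3 reached 1 FPKM only with GFP plus EICD and entered the count through that library. With 1 added to both libraries, which lowers the ratios of scarce mRNAs, 5 of 16 were more than 2-fold higher. Cxcl2 was at 1.24 FPKM with GFP and 10.8 with GFP plus EICD. In GFP-transfected sorted cells 10 of 14 were more than 2-fold higher than in untransfected cells, with a median of 1.76. Over all loci 4.01% were that much higher. Fos, an immediate early gene, was at 0.82 FPKM in the untransfected and 148 FPKM in the GFP library, which was the largest ratio of the list in this comparison at 7.48. Fos, Cxcl2 and Ccl2 reached 1 FPKM only in the GFP library and entered the count through it. The nonamer was present in 11 of the 17 listed genes that had an annotated region and 1 FPKM or more in a library. Of all such loci 8.62% held it. The list was made of genes known to carry AU-rich elements, so a high share follows from that choice.

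Over all loci, those with the nonamer were more than 2-fold higher with PMA in 5.50% of cases (872 loci) in 427 cells, against 3.45% of 9112 loci without it. They were also more than 2-fold lower in 5.16% of cases, against 4.54%. With EICD the shares higher were 4.38% of 867 and 3.39% of 9177 loci, and those lower 0.231% and 0.458%. Between the lines with DMSO, 1.85% of loci with the nonamer and 2.68% of those without were higher in the library labelled SP2bKD. The shares lower there were 1.85% and 2.54%. Between the lines with PMA, 1.63% and 2.03% were higher and 3.15% and 2.44% lower. None of these differences was tested. The medians of both groups with PMA in 427 cells were -0.11 and -0.12. Loci with the nonamer had longer regions, with a median of 2342 against 1130 bases in the first comparison, and the part of length in these shares was not tested.

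Most of the machinery with which the factors act stayed within 2-fold, as did most of all loci. Of 18 measured deadenylase and poly(A)-binding genes and 16 exosome and SKI genes, none was past 2-fold in any of the 7 comparisons, and their medians lay between -0.13 and 0.17. Over all loci 2.56% to 4.44% were more than 2-fold higher and 0.810% to 6.40% lower in these comparisons. For 1 list of this size in 1 comparison and 1 direction, the absence of calls is near those shares. Taken over the 7 comparisons and both lists together, which share libraries, the absence was not tested. Each library was also set to the same sum of FPKM, which moved the median of all loci. Then with DMSO 8 of the 18 and 9 of the 16 were more than 2-fold higher with the SP2bKD label than in 427 cells. With PMA 16 and 13 were. Under that scaling 51.1% of all loci were that much higher with DMSO and 78.9% with PMA, so the lists lay near those shares. Tnks1bp1, a CCR4-NOT-associated protein, came nearest for PMA, with a log2 ratio of 0.82 in 427 cells (chosen after its value was seen). Among 18 decapping and 5' to 3' decay genes, Lsm5 and Lsm7 were past 2-fold. Lsm5, a subunit of the LSM ring that binds decapping substrates, was at 319.3 FPKM in the cells labelled SP2bKD with DMSO and at 59.9 to 99.1 FPKM in the other 5 libraries. Lsm7, of the same ring, was at 33.6 FPKM in that library and at 41.4 to 74.3 FPKM elsewhere, and its locus overlaps Sppl2b.

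Of 10 kinases, phosphatase and 14-3-3 genes that act on ZFP36 proteins, Mapkapk3 was past 2-fold in 1 of the 7 comparisons, PMA in 427 cells. Its log2 ratio was 1.01, at the line itself, and 0.75 with the same sum of FPKM. In this comparison 4.44% of all loci were that much higher. Mapkapk3, a close relative of the kinase that phosphorylates tristetraprolin, was at 10.2 FPKM in 427 cells with DMSO and 20.5 with PMA. In the cells labelled SP2bKD it was at 10.3 and 17.1 FPKM. Mapkapk2 itself was at 50.0 to 57.3 FPKM in all libraries. Among 17 other proteins that bind 3' untranslated regions, Igf2bp1 was past 2-fold, at only 0.01 to 1.35 FPKM. It was lower with PMA in the cells labelled SP2bKD (-2.36) and with EICD (-1.56), against 6.40% and 0.810% of all loci. Between the lines with DMSO it was higher (1.30), against 3.92% of all loci. Its difference of PMA ratios between lines was -1.75, and 4.60% of all loci were past 1 in size there. In the list of these 17 proteins the ratios with EICD were negative for 12 of 16 genes, with a median of -0.10 against 0.07 for all loci. The share of negative ratios over all loci was not counted. Signs of small ratios depend on the scaling, and the same sum of FPKM moved the median of all loci by -0.17.

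Relatives of the members other than Btg2 and Btg3 were low or silent, and 5 of 9 reached 1 FPKM with DMSO in either line. Btg3 was at 27.2 FPKM in the cells labelled SP2bKD with DMSO and at 42.6 to 51.0 FPKM in the other libraries. Its log2 ratios were 0.05 for PMA in 427 cells, 0.90 for PMA in the cells labelled SP2bKD and -0.82 between lines with DMSO. They were 0.91 for sorted cells and -0.26 for EICD. Btg2, an antiproliferative immediate early gene, was at 12.8 FPKM in 427 cells with DMSO and 11.0 with PMA. In the libraries labelled SP2bKD it was at 11.0 FPKM with DMSO, 7.99 with PMA, 24.0 with GFP and 46.4 with GFP plus EICD. Its course was thus that of Zfp36 and Zfp36l1, with log2 ratios of 1.13 for sorted cells and 0.95 for EICD, and unlike that of Btg1. Elavl4, a neuronal Hu protein, was at 0.98 to 1.84 FPKM in the libraries labelled SP2bKD, at 0.015 FPKM in 427 cells with DMSO and listed at 0 there with PMA. Zc3h12b was at 0.71 to 2.52 FPKM and Zfp36l3 at 0.40 to 1.22 FPKM.

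**Figure D3:**
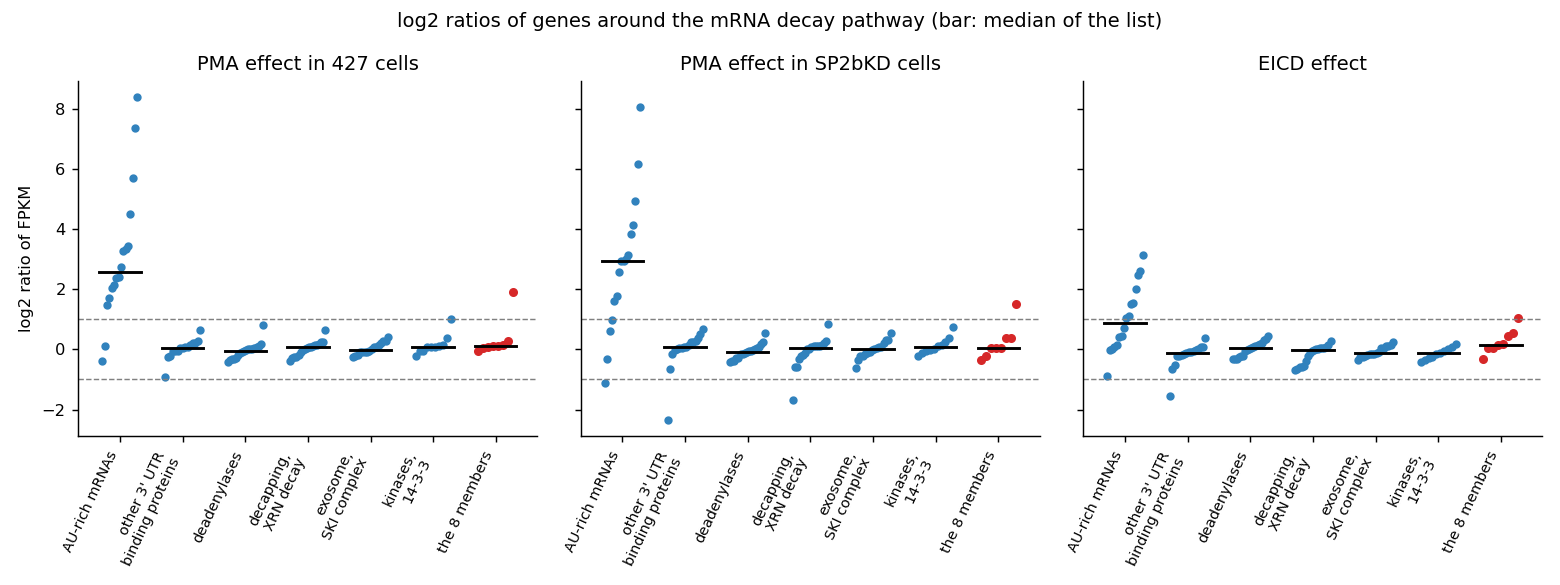
The log2 ratio of FPKM (y axis) of single genes (points) in 6 lists around the mRNA decay pathway and of the 8 members (red), for PMA in 427 cells, PMA in the cells labelled SP2bKD and EICD against GFP, with list medians as black bars and the 2-fold lines dashed. The mRNAs with AU-rich elements reach 8.39 with PMA while the deadenylase and exosome genes stay between the dashed lines.

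Zfp36, Zfp36l1 and Zc3h12a, which spanned more than 2-fold, were each set against 7343 loci with a symbol and a mean of 10 FPKM or more, by the Euclidean distance of their centered log2 levels over the 6 libraries. Nearest to Zfp36 were Id3 (distance 0.37), Jun (0.40) and a locus named NXPE3 (0.49). Jun, an AP-1 subunit and immediate early gene, was at 15.6 to 16.1 FPKM in the 4 unsorted libraries, 55.3 with GFP and 90.8 with GFP plus EICD. Nearest to Zfp36l1 were Jag1 (0.25), which encodes a Notch ligand, Ckmt1 (0.27) and Pfkp (0.31). Nearest to Zc3h12a were a locus named pol (0.70), Nfkbia (0.70) and Tnfaip3 (0.74). Nfkbia and Tnfaip3 encode inhibitors of NF-kB signaling. With 6 points and many loci, such distances are a description.

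**Figure D4:**
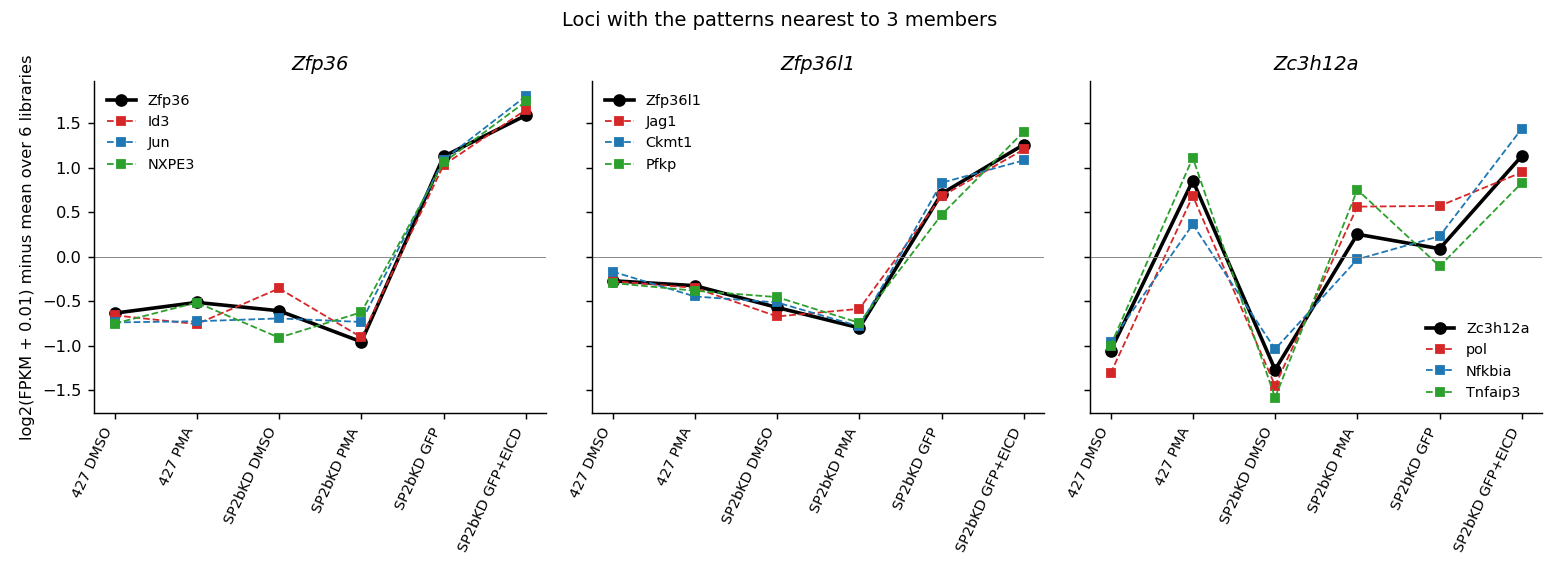
The log2 of FPKM + 0.01 minus its mean over the 6 libraries (y axis) for 3 genes (black) and the 3 loci nearest to each (colored, dashed), by library (x axis). The loci near Zfp36 and Zfp36l1 are high in the sorted libraries, and those near Zc3h12a are high in the PMA libraries as well.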

How the data were processed

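RNA of 6 samples was sequenced as paired-end reads of 100 bases, and per the labels the libraries were poly(A)-selected. The authors aligned reads, computed FPKM and deposited a table of FPKM values for each library on GRCm38. The submitters' processing notes name STAR 2.4.0b, TopHat2 2.1.1, Cufflinks 2.1.1 and Cuffdiff 2.1.1. FPKM depends on the assembled gene models, and a locus that joins neighboring genes has 1 value for them. Ratios were formed with Python 3.11.15, NumPy 2.4.6 and pandas 2.3.3 as log2 of FPKM + 0.01 in both libraries. For EICD 0.01 was added to the EICD library only, at loci with 0.01 FPKM or more in the GFP library. Loci that reached 1 FPKM in either library were tested, and past 2-fold was the rule of size, with no p-value. A locus could therefore enter a count through its higher library alone. Depth was estimated from the steps between low FPKM values, and fragments per gene from the longest annotated transcript, an upper estimate. Plots were drawn with matplotlib 3.10.9.

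The members and lists were chosen with earlier results of these data known. Named were all members, Btg2, up to 4 genes past 2-fold by size from each other list, the 3 nearest loci for members spanning more than 2-fold, and Sppl2b and St14 as checks. Dusp1, Ptgs2, Hif1a, Tnks1bp1, Mapkapk2, Btg3, Ccl2 and Tnf were added after their values were seen. The alternatives were other amounts added, other minimum levels and other scalings.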

Additional observations from a re-analysis of the deposited data

Results flagged for a closer look

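The PMA ratio of Zfp36 had opposite signs in the lines, at 0.12 in 427 cells and -0.35 in the cells labelled SP2bKD. The counting interval in 427 cells was -0.06 to 0.30 and includes 0, so the sign there is not established. The PMA ratio of Lsm5 was 0.65 in 427 cells and -1.69 in the cells labelled SP2bKD, where its level with DMSO was the highest of the 6 libraries. With 1 library per condition neither difference was tested. With the same sum of FPKM in each library, the ratio of Zfp36 in 427 cells was -0.13.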

How the results depend on the processing

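The counts of members past 2-fold were kept under all alternatives except the following. With 1 added to both libraries, and with each library set to an FPKM sum of 1000000, 0 members were more than 2-fold higher with EICD. With that sum, 2 members were more than 2-fold higher in the library labelled SP2bKD than in 427 cells with DMSO and 5 with PMA. Of all loci 51.1% and 78.9% were that much higher there. The sum moved the median of all loci by 0.96 and 1.24 in these comparisons, by -0.25 for PMA in 427 cells, by -0.17 for EICD and by -0.27 for the difference between lines. It moved 40 of 56 member ratios by more than their counting interval, against 6 for the same upper quartile and 1 for 1 added. Over all loci, the share of calls that were higher went from 47.1% to 26.6% for PMA in 427 cells, from 55.6% to 97.9% and from 44.0% to 98.8% between lines with DMSO and PMA, from 82.9% to 71.7% for EICD and from 63.0% to 43.4% for the difference. With 1 added to both libraries it went from 47.1% to 62.5% for PMA in 427 cells and from 37.5% to 49.7% in the cells labelled SP2bKD. Counts of loci per comparison were 278 to 488 higher and 89 to 703 lower. They were 1789 to 2455 and 1058 to 2671 with no minimum, 62 to 259 and 25 to 219 with a minimum of 10 FPKM, 135 to 346 and 38 to 322 with 1 added, and 201 to 8555 and 107 to 932 with the same sum. No paired analysis was possible because each condition has 1 library. Depth limits Zfp36 and Zc3h12a most, with an estimated 396 to 552 fragments in the libraries where they were lowest.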
